A study of Mus musculus with 2 samples.

Results

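In single-cell transcriptomes of the mouse subventricular zone, 183 of the 3937 cell barcodes were chosen for RNA of 4 genes under set limits. The 4 genes were the stress-induced transcription factor Atf3, the chemokines Cxcl1 and Cxcl10, and the transcription factor Irf8. The cells were selected on the counts of these 4 genes: Atf3, Cxcl1, Cxcl10 and Irf8 together had at least 3 UMIs, where a UMI (unique molecular identifier) is a short tag that stands for 1 captured RNA molecule. No test was made on the selecting genes. At most 10% of its UMIs came from mitochondrial genes, Slc1a2, Aldoc, Ntsr2, Cldn10 and Gja1 together stayed under 40 per 10000 UMIs, and Mag, Mog, Cldn11, Mal and Ermn together stayed under 5 UMIs. The first group of limits leaves out most quiescent stem cells and astrocytes, and the second leaves out oligodendrocytes. Library 1 held 107 of these positive cells among 1849 barcodes (5.79%, exact 95% interval 4.77 to 6.95%) and library 2 held 76 among 2088 (3.64%, 2.88 to 4.53%). The comparison cells were the 633 and 1167 cells with 0 UMIs of the 4 genes under the same limits in library 1 and library 2. Another 225 and 256 cells had 1 or 2 UMIs and belonged to neither group.

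The tissue came from male C57BL/6 mice, with 8 mice of 22 months pooled for one library and 4 mice of 2 months for the other. The sort kept cells with surface GLAST, a transporter of glutamate found on astrocytes and on stem cells of glial character, and removed those with O4, Ter119 or CD45, which mark oligodendrocyte lineage, erythroid cells and leukocytes. No label tied the library number in the barcodes to an age, so both libraries are described side by side without naming an age. With 1 library per age and pooled animals there was no replicate: no test was made, cells are not replicates, and every interval covers counting error only.

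The subventricular zone beside the lateral ventricles is a site of adult neurogenesis, where quiescent stem cells become activated, give rise to transit amplifying progenitors and then to neuroblasts that migrate to the olfactory bulb. Atf3 belongs to the immediate early genes, whose transcription starts within minutes of a stimulus without new protein synthesis. Fos and Jun family proteins of this class pair to form the transcription factor AP-1. Cxcl1 attracts neutrophils through the receptor Cxcr2 and is a target of NF-kB, while Cxcl10 attracts T cells through Cxcr3 and is a target of interferon signalling. Irf8 is a transcription factor of microglia and other myeloid cells that can also be induced by interferon gamma.

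The promoters of both chemokine genes are shown because their sequences carry motifs of the pathways described further on. They were taken from RefSeq on GRCm38.p6, 250 bases before to 50 bases after the gene start, and are written along the gene's own strand. Capitals mark matches to 3 motifs: kappa-B-like, which is GGGA and TTCC with 2 bases between them, ISRE-like, for the interferon-stimulated response element, which is GAAA and GAAA with 2 bases between them, and AP-1, which is TGANTCA. TGACGTCA, the cAMP response element, was also searched, and all motifs were searched on both strands. The Cxcl1 window is chr5:90890995-90891294 on the plus strand, and the Cxcl10 window is chr5:92348840-92349139 on the minus strand.
Cxcl1: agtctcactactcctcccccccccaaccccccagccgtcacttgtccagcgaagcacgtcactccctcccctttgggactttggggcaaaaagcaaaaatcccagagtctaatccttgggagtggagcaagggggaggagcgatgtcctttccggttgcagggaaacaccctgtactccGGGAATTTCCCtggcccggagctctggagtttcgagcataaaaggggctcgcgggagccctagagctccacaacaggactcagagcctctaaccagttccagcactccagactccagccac
Cxcl10: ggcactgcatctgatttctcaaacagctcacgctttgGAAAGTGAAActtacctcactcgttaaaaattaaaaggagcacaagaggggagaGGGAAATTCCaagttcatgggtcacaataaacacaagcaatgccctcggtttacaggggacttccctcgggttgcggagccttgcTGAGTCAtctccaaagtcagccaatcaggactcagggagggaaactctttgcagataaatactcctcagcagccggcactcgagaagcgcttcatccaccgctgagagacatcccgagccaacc
The Cxcl1 window held 2 overlapping kappa-B-like matches, 1 on each strand, whose first bases lie 71 and 70 bases before the gene start. The Cxcl10 window held an ISRE-like match 213 bases, a kappa-B-like match 159 bases and an AP-1 match 74 bases before the start. Of the 26994 genes with a promoter in the RefSeq table, 1.63% held the kappa-B-like motif, 3.98% the ISRE-like motif, 2.03% the cAMP response element and 8.98% the AP-1 motif. None of the 4 motifs was found in the windows of Atf3 (chromosome 1) or Irf8 (chromosome 8). Atf3 had 1 window, chr1:191183284-191183583 on the minus strand. It lies inside the GENCODE gene, which reaches 191218039, so the outer start of that annotation was not searched. A match describes the letters in a window and is not a measured binding site.

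Atf3 supplied most of the UMIs that chose the cells. It had 1378 UMIs in the positive cells, 70.4% of all UMIs of the 4 genes, and was seen in 165 cells, 100 in library 1 and 65 in library 2. In 94 cells it was the only one of the 4 genes. Cxcl10 had 319 UMIs in 56 cells, Cxcl1 had 127 UMIs in 24 cells and Irf8 had 133 UMIs in 40 cells. The name given to these cells, chemokine and stress gene positive, therefore held for chemokines in a minority: 66 of 183 cells (36.1%, exact 95% interval 29.1 to 43.5%) had a UMI of Cxcl1 or Cxcl10. They are called positive cells here, after the rule.

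Most cells carried a single gene of the group. There were 101 cells with 1 of the 4 genes, 64 with 2, 16 with 3 and 2 with all 4. Both chemokines were seen together in 14 cells, and Irf8 together with a chemokine in 17. The sum of the 4 genes had a median of 7 UMIs and reached 58 in library 1 and 52 in library 2. Just inside the rule, 37 positive cells had exactly 3 UMIs, and just outside it 57 cells of library 1 and 34 of library 2 had 2. Single cells weighed heavily on the rarer genes: 1 cell held 35 Cxcl1 UMIs, which was 45.5% of that gene's UMIs in library 1. The highest counts in 1 cell were 47 UMIs for Atf3, 37 for Cxcl10 and 14 for Irf8.

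**Figure D1:**
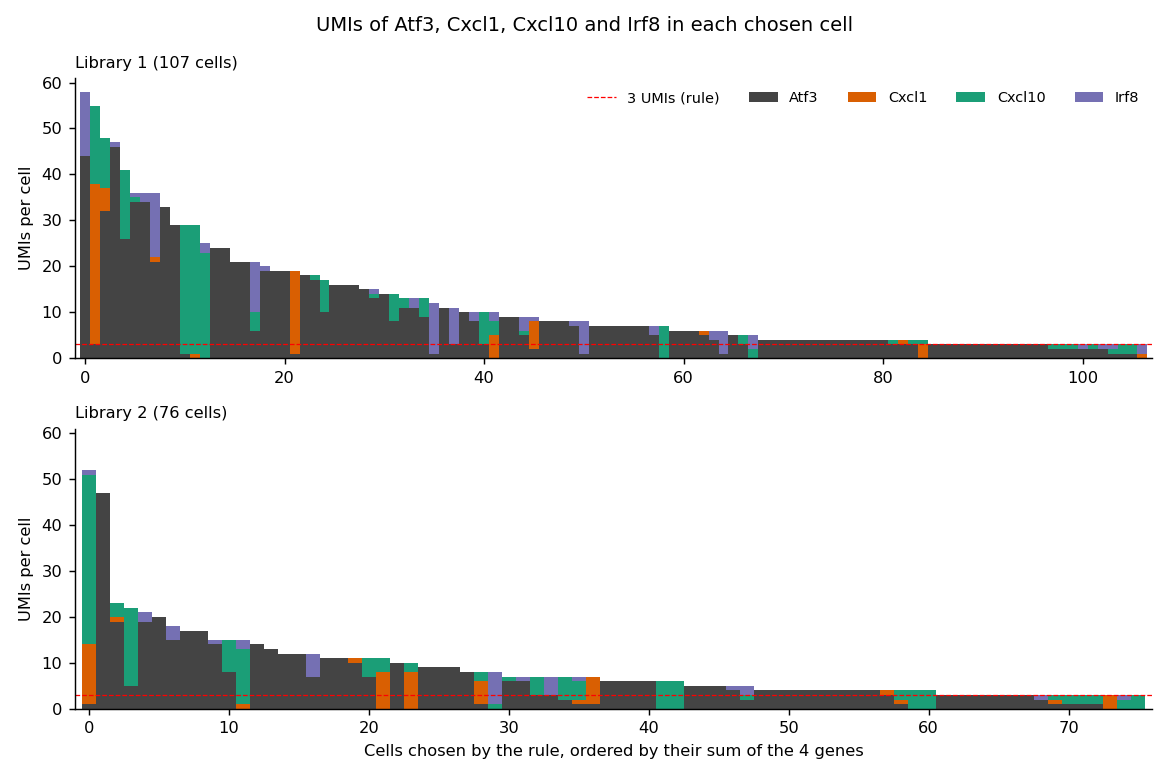
UMIs of Atf3, Cxcl1, Cxcl10 and Irf8, stacked, in each of the 107 positive cells of library 1 and the 76 of library 2, ordered by their sum, with UMIs per cell on the vertical axis and a dashed line at the limit of 3. Atf3 makes up most of the bars, up to 47 UMIs, and Cxcl1, Cxcl10 and Irf8 are at 0 in most cells.

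The genes lie apart in the genome except for the chemokines, which share chromosome 5. On GRCm38 the GENCODE annotation places Atf3 at chr1:191170296-191218039 on the minus strand, Cxcl1 at chr5:90891241-90893115 on the plus strand, Cxcl10 at chr5:92346638-92348889 on the minus strand and Irf8 at chr8:120736358-120756694 on the plus strand, all as protein-coding genes.

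The same genes were also counted in the neuroblast-like clusters, 363 cells of library 1 with a median of 3666 UMIs and 494 cells of library 2 with a median of 5252.5. Whether UMIs seen there came from the cells themselves or from free RNA was not tested. Atf3 was seen there in 11.3% and 6.28% of cells, Cxcl10 in 1.93% and 2.63%, Cxcl1 in 0.826% and 1.21%, and Irf8 in 1.93% and 0.607%. No neuroblast-like cell reached 3 UMIs of the 4 genes under the limits. Positive cells had more UMIs than comparison cells, with medians of 7584 against 5986 in library 1 and 7932 against 7091 in library 2. In library 1, 1 positive cell had 53687 UMIs and another 38698, of 910630 summed over its positive cells. No comparison cell of library 1 had more than 24293. The median mitochondrial share of positive cells was 3.31% against 3.27% in library 1 and 2.92% against 3.25% in library 2. Scrublet, a doublet caller, marked 27 of all barcodes, 3 of them positive cells of library 1, and 4 barcode sequences occurred in both libraries, 1 of them in a positive cell.

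The positive cells gathered in a few clusters that had been made without the 4 genes or any listed gene. The largest part, 72 cells, lay in cluster 3, which met no fixed naming rule and whose leading genes were Cxcl10, Nr4a1, Maff, Irf8, Junb, Cebpb, Atf3, Zfp36, Irf1 and Cyr61. Of the 213 cells that library 1 had there, 21.6% were positive (16.3 to 27.7%), and of the 167 that library 2 had there, 15.6% (10.4 to 22.0%). In cluster 9, named activated stem cell and transit amplifying progenitor-like from its markers, they made up 32 of 142 cells (22.5%, 16 to 30.3%) in library 1 and 4 of 69 (5.80%, 1.60 to 14.2%) in library 2. In cluster 4, of the same name, they were 12 of 113 cells (10.6%) and 22 of 202 (10.9%). The counting intervals of both libraries overlapped in cluster 4 and did not overlap in cluster 9. With 1 library per age, they give no measure of the spread between libraries. No positive cell lay in the neuroblast-like clusters 5, 6 and 8 or in cluster 0, which held most quiescent-like cells; the limit on quiescent genes itself removes cells from cluster 0.

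**Figure D2:**
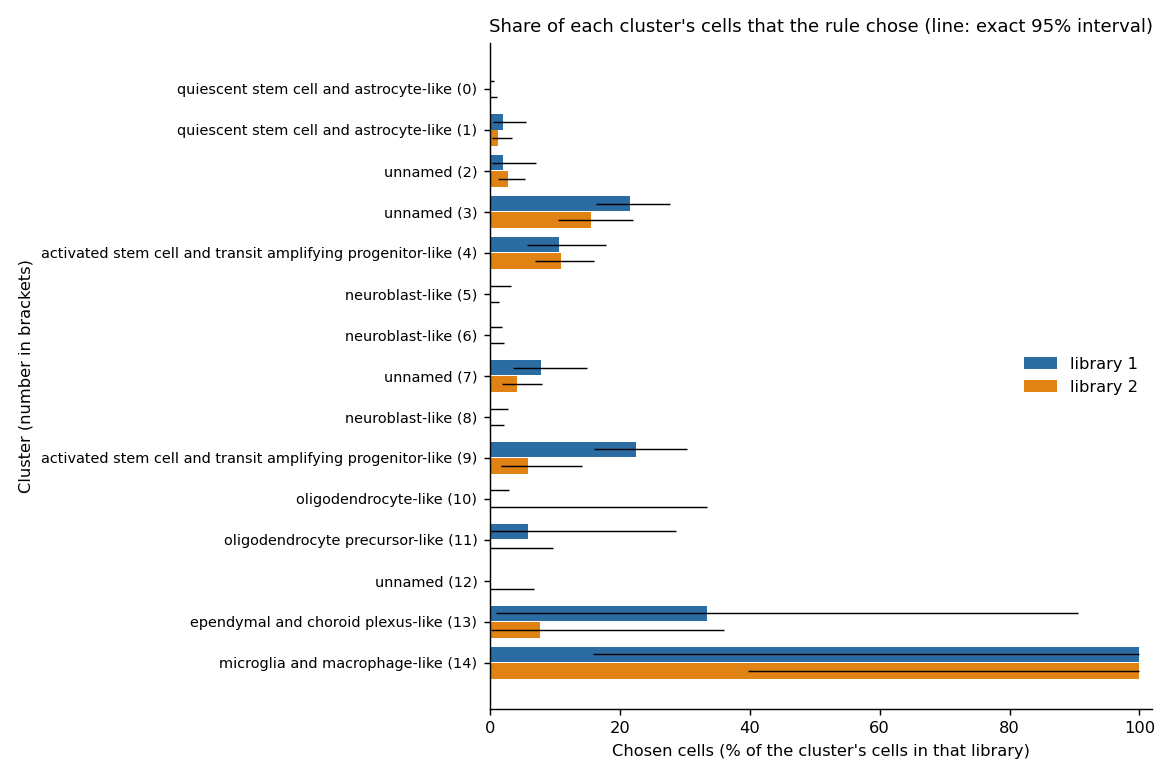
Share of each cluster's cells that were positive, in percent, for library 1 and library 2, with exact 95% binomial intervals as lines. Cluster 3 stands at 21.6% and 15.6%, cluster 9 at 22.5% and 5.80%, the neuroblast-like clusters at 0, and cluster 14 at 100% on 2 and 4 cells.

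Against all comparison cells, positive cells had more RNA of quiescent markers and less of neuroblast markers, while the summed activated list was similar. Slc1a3, which encodes the sorted protein GLAST, was at 940 CPM in positive cells against 426 CPM in comparison cells in library 1, and at 911 against 469 CPM in library 2. The quiescent stem cell and astrocyte list, which includes the genes of the limit, summed to 102 and 78.6 UMIs per 10000 in positive cells of library 1 and library 2, against 53.2 and 43.8 in comparison cells. The activated stem cell and progenitor list summed to 91.1 and 83.8 against 90.5 and 83.1, and the neuroblast list to 58.4 and 59.7 against 140 and 128. The activated list includes the immediate early gene Btg2. In library 1 Btg2 was at 467 CPM with 0 UMIs of the 4 genes and at 2093 CPM with 10 or more. In library 2 it was at 389 and 2291 CPM. The activated sum without Btg2 was not taken. With comparison cells weighted to the positive cells' clusters, and without cluster 14, the quiescent list had median log2 ratios of -0.10 and 0.14. Genes of the limit were left out of these medians. Without weights, the ependymal and choroid plexus list had medians of 1.48 on 5 measured genes in library 1 and 0.75 on 11 in library 2. Cluster 13, named ependymal and choroid plexus-like, held 1 positive and 1 comparison cell of library 1, and 1 and 11 of library 2. The part of these cells in the medians was not tested.

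A small set of 6 positive cells, 2 in library 1 and 4 in library 2, formed the whole of cluster 14 and carried microglia markers. They had 62 to 153 UMIs of 10 core microglia genes, against at most 2 UMIs in any other positive cell. Tmem119 and P2ry12, which mark microglia, were seen in all 6, and Ptprc, which encodes CD45, had 1 UMI in 4 of them although the sort had selected against that protein. They had 3 to 34 UMIs of Atf3 and 1 to 4 of Irf8, and 0 of Cxcl1 and Cxcl10. Instead they carried Ccl3 and Ccl4, chemokines that attract monocytes and T cells. All 56 Ccl3 UMIs of the positive cells of library 1 and 48 of 49 in library 2 were in these 6 cells, as were 57 of 58 and 157 of 159 Ccl4 UMIs. The complement genes C1qb and C1qc followed the same pattern, with 45 of 46 and 34 of 35 UMIs in these cells in library 1, and 88 of 90 and 88 of 88 in library 2. Without these 6 cells, the microglia list of 23 genes came to 0.344 and 0.356 UMIs per 10000 in positive cells of library 1 and library 2, against 0.474 and 0.488 in comparison cells, and 15 of the 23 genes, Cx3cr1, P2ry12, Tmem119 and Csf1r among them, were at 0 in library 1.

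Irf8 was not confined to those microglia-like cells. It was seen in 34 other positive cells, 32 of which had 0 UMIs of all 10 core microglia genes and the rest at most 1. The 11 cells with at least 3 Irf8 UMIs outside cluster 14, 9 in library 1 and 2 in library 2, all had 0 core microglia UMIs, and all lay in cluster 3. Erythroid genes were at 0 in the positive cells, and of the 15 neutrophil and lymphocyte markers 12 were at 0 in library 1 and 13 in library 2.

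Maff, a small Maf transcription factor that lacks a transactivation domain, was among the genes with the highest ratios. It stood at 541 CPM (UMIs of the gene scaled to a common total of all UMIs in the group) in positive cells, against 62.1 CPM in comparison cells, in library 1, from 493 and 253 UMIs. In library 2 it was at 327 CPM against 36.3 CPM. The log2 ratios were 3.12 (exact 95% interval 2.90 to 3.35) and 3.17 (2.91 to 3.43). Maff was seen in 76.6% and 68.4% of positive cells and in 25.8% and 17.7% of comparison cells. After each cell was thinned to 2000 UMIs, these shares were 48.6% and 43.4% of positive cells, against 12.2% and 6.38% of comparison cells, so the order of the groups was the same at equal depth.

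Nr4a1, an orphan nuclear receptor of the immediate early class, was at 419 CPM in positive cells against 69.0 CPM in comparison cells in library 1, and at 406 CPM against 50.6 CPM in library 2. Its log2 ratios were 2.60 (2.38 to 2.83) and 3.01 (2.78 to 3.23). It was seen in 74.8% and 69.7% of positive cells, against 23.9% and 15.7% of comparison cells, and after thinning in 52.4% and 38.2% against 10.3% and 6.99%. Both Maff and Nr4a1 were part of the marker set that gave the cells their name, so their height is a description of that set.

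Across the transcriptome, 238 of 9687 genes with at least 30 UMIs in each library were at least 2-fold higher in positive cells in both libraries, which is 2.46% of them, and 179 (1.85%) were at least 2-fold lower. Without the microglia-like cells the numbers were 222 of 9673 (2.3%) and 178 (1.84%). The 15 highest genes began with Ccl4, Ccl3, C1qc and C1qb, whose UMIs lay mostly in the 6 microglia-like cells. Also among them were Csrnp1, Maff, Gem, Tnfrsf12a, Cyr61, Srxn1, Nfkbiz, Cebpb, Trib1 and Nr4a1. Csrnp1, a nuclear protein gene induced by Axin1 in human cells, had log2 ratios of 3.23 in library 1 and 3.91 in library 2, and Gem, a small GTPase that inhibits calcium channels, had 2.98 and 3.07. Tnfrsf12a, the receptor of the cytokine TWEAK, had 2.91 and 2.92. Cyr61, a secreted matricellular protein gene, had 2.81 and 2.99. Srxn1, which reduces oxidised peroxiredoxins, had 2.83 and 2.77, and Trib1, a pseudokinase that promotes degradation of C/EBP proteins, had 2.70 and 2.66.

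The immediate early and AP-1 list moved as a group. Of its 28 members with at least 20 UMIs in each library, 21 were at least 2-fold higher in positive cells in both libraries and none was 2-fold lower, while 2.92% of all 10525 genes counted by the same limit were that much higher. The median log2 ratio of the list was 1.95 in library 1 (order-statistic interval 1.53 to 2.55) and 2.01 in library 2 (1.43 to 2.35), beside 0.06 and 0.04 over all genes. Fos stood at 3592 CPM in positive cells against 991 CPM in comparison cells in library 1, and at 3944 against 840 CPM in library 2. Jun, its partner in AP-1, stood at 3439 against 811 CPM and at 3215 against 607 CPM. Junb stood at 1486 against 271 CPM and at 1450 against 171 CPM, with log2 ratios of 2.46 and 3.09.

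Other members of the list followed with smaller or uneven differences. Arc, which in neurons forms virus-like capsids that carry RNA, had log2 ratios of 2.78 and 2.18. The antiproliferative gene Btg2 had 2.04 and 2.03, and Ier2 had 1.74 and 1.93. Egr1, a zinc finger factor that is abundant in both groups, had 0.85 and 1.11, from 1847 against 1022 CPM in library 1 and 1834 against 848 CPM in library 2. Btg1 was the member that did not follow, with -0.44 and 0.08. Without the microglia-like cells, 21 of 28 members were at least 2-fold higher, beside 2.65% of all genes. Cells over the limit on quiescent genes were split by the same sum of the 4 genes, so they give a description and no independent check. Among them, 20 of 23 measured members were at least 2-fold higher where the 4 genes had at least 3 UMIs, beside 3.43% of 8446 genes, with 2.89% that much lower. Depth and cluster make-up differed between these cells and those with 0 UMIs, and their part in the result was not tested.

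Some genes that switch off the same signals were higher. Of 17 measured genes on the MAP kinase phosphatase and feedback list, 6 were at least 2-fold higher in both libraries, beside 2.92% of all genes. They were Dusp1, Dusp5, Dusp8, Dusp10, Dusp16 and Gem. Gem, the small GTPase named above, is on the list but is not a phosphatase. The list median was 1.07 (0.63 to 1.58) and 0.78 (0.13 to 1.48). Within cluster 3 alone, 2 of 7 measured members were that much higher, beside 1.18% of all genes there. The median was 1.56 (0.70 to 2.33) in library 1 and 0.40 (-0.20 to 1.56) in library 2. Dusp1, a phosphatase that inactivates MAP kinases, was at 354 CPM in positive cells against 82.5 CPM in comparison cells in library 1, and at 343 against 74.0 CPM in library 2.

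The NF-kB list had a smaller shift. Of its 26 measured members, 7 were at least 2-fold higher in both libraries, beside 2.92% of all genes: Nfkbia, Nfkbiz, Rel, Relb, Vcam1, Myd88 and Tifa. The median was 0.75 (0.42 to 1.19) in library 1 and 0.88 (0.51 to 1.40) in library 2. Nfkbia, which encodes the inhibitor that holds NF-kB in the cytoplasm and is itself an NF-kB target, was at 213 CPM against 93.3 CPM in library 1 and at 278 against 60.3 CPM in library 2, log2 ratios of 1.19 and 2.21. Nfkbiz, a nuclear cofactor of NF-kB, had 2.76 and 2.84. Relb, Rel, Myd88 and Tifa rested on 4 to 20 UMIs in positive cells of each library.

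The interferon list was uneven. Of 24 measured members, 7 were at least 2-fold higher in both libraries, beside 2.92% of all genes. They were Irf1, Gbp3, Gbp7, Irgm1, Rtp4, Ifitm3 and Socs1. The list median was 1.04 (0.33 to 1.52) in library 1 and 0.60 (0.40 to 1.07) in library 2. Irf1, a transcription factor induced by interferon gamma and by NF-kB, was at 120 CPM in positive cells against 22.3 CPM in comparison cells in library 1, and at 112 against 13.9 CPM in library 2. Isg15, a ubiquitin-like protein gene and textbook target of type I interferon, had 2 UMIs in positive cells against 12 in comparison cells in library 1, and 0 against 8 in library 2, too few for a ratio. Of the 59 genes in the list, 45 had a promoter in the RefSeq table, under 80% of the list, and 24 of these held the ISRE-like motif shown in the Cxcl10 window. That share describes the list and not the positive cells. Of 238 genes at least 2-fold higher in both libraries, 176 had a promoter there. The ISRE-like motif was in 5.68% of these against 3.20% of measured genes, and the kappa-B-like motif in 1.70% against 1.65%. AP-1 was in 11.4% against 5.24%, and the cAMP response element in 6.25% against 4.23%.

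Within the integrated stress response, 4 of 33 measured members were at least 2-fold higher in both libraries, beside 2.92% of all genes. The list median was 0.18 (0.03 to 0.46) in library 1 and 0.45 (0.31 to 0.61) in library 2, against 0.06 and 0.04 for all measured genes. The 4 were Ddit3, which encodes the transcription factor CHOP, Ppp1r15a, which restores translation by dephosphorylating eIF2 alpha, the cystine transporter gene Slc7a11, and Cebpb. Ddit3 was at 511 CPM against 141 CPM in library 1 and at 338 against 93.2 CPM in library 2. Atf4, the central transcription factor of the response, had log2 ratios of 0.63 and 0.51. Asns, an amino acid synthesis gene that Atf4 controls, had 0.03 (-0.77 to 0.77) and -0.79 (-2.44 to 0.47), with only 19 and 5 UMIs in positive cells.

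Other stress lists had smaller medians than the immediate early list. All measured genes had medians of 0.06 and 0.04, and 2.92% of them were at least 2-fold higher in both libraries. The unfolded protein response had medians of 0.41 and 0.40, heat shock genes 0.17 and 0.25, and p53 targets 0.32 and 0.26, with 2 of 20, 2 of 23 and 5 of 28 measured members at least 2-fold higher in both libraries. Cytosolic ribosomal protein genes had -0.13 and -0.11. Genes of MHC class I antigen presentation had 0.52 and 0.86, with 2 of 12 measured members at least 2-fold higher in both libraries, JAK-STAT feedback genes 0.46 and 0.37 with 2 of 14, and Notch pathway genes 0.49 and 0.29 with 4 of 18. Genes of the S phase had -0.27 and 0.10 and genes of the G2 and M phases -0.67 (-0.80 to -0.51) and -0.07 (-0.21 to -0.04), with none of 34 and none of 37 at least 2-fold higher. Without the microglia-like cells the MHC class I medians were 0.48 and 0.34. With comparison cells also weighted to the positive cells' clusters, they were -0.07 and 0.18. None of 6 measured members was then at least 2-fold higher in both libraries, beside 0.799% of all genes. JAK-STAT feedback genes then had 0.50 and 0.25 (none of 10) and Notch pathway genes -0.03 and 0.02 (none of 14). S phase genes had -0.07 and 0.09, and G2 and M phase genes 0.21 and -0.04. The part of cluster make-up in these lists was not tested. Of the other chemokines, 5 were measured in both libraries and Ccl3 and Ccl4 were at least 2-fold higher, and none of 3 was so without the microglia-like cells. Cxcl2, a neighbour of Cxcl1 in function, had 0 UMIs in positive cells against 2 in comparison cells of library 1, and 4 against 0 in library 2.

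**Figure D3:**
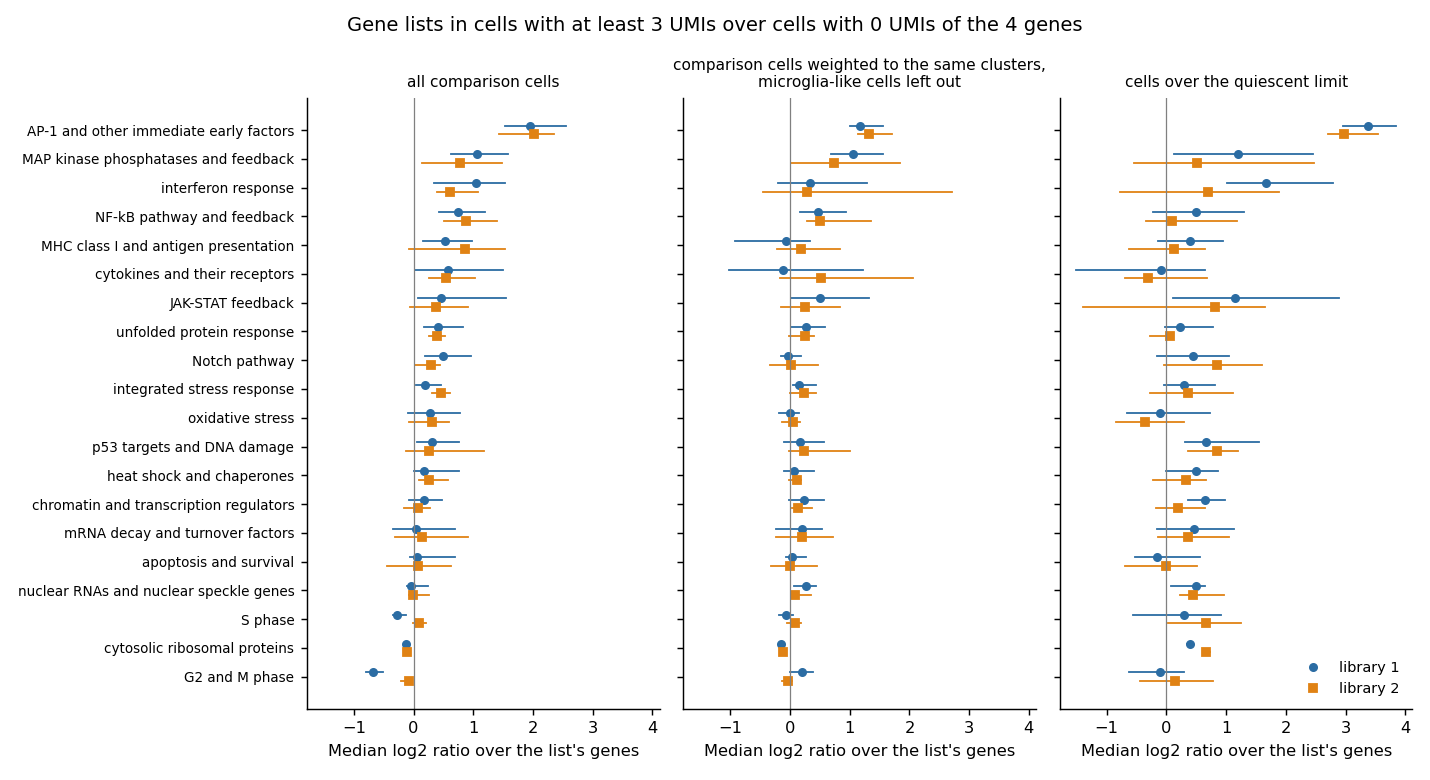
Median log2 ratio (horizontal axis) of the pathway and program lists with at least 6 measured genes in each library (cell type marker lists are not drawn), in library 1 (circles) and library 2 (squares), cells with at least 3 UMIs over cells with 0 UMIs of the 4 genes, with order-statistic intervals over genes as lines, for all comparison cells, for comparison cells weighted to the same clusters, and for cells over the quiescent limit. Of the lists drawn, the immediate early list stands farthest to the right in each panel in library 1 and library 2, at 1.95 and 2.01, then 1.17 and 1.33, then 3.38 and 2.97.

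The lower genes were those of neuroblasts. Of 22 neuroblast list members, 17 were at least 2-fold lower in positive cells in both libraries, with a median of -2.78 (-3.49 to -1.87) in library 1 and -2.00 (-3.36 to -1.52) in library 2, against a background of 1.87% of genes that much lower. Sp9, a transcription factor of neuroblasts that become olfactory bulb interneurons, was at 25.3 CPM in positive cells against 418 CPM in comparison cells in library 1, and at 15.8 against 238 CPM in library 2. Dcx, a microtubule protein of migrating neuroblasts, had -3.55 and -3.50. Stmn2, Dlx5, Dlx6os1 and Gad1 had ratios between -3.36 and -3.99. The remainder of the 15 lowest genes were Tiam2, Atcay, Mapk10, Stc1, Sp8, Dlx6, Synpr, Sema6c and Runx1t1, each with 1 to 9 UMIs in positive cells of a library.

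Comparison cells included the neuroblast-like clusters and positive cells did not. Each cluster of comparison cells was next given the weight it had among positive cells, without the microglia-like cells. The neuroblast medians were then -0.27 (-0.48 to -0.12) and -0.40 (-0.78 to 0.07). None of 17 measured members was 2-fold lower in both libraries. In library 2 by itself 3 of 18 were, beside 0.474% of all genes. Dcx then had -0.42 and -1.44, while Stmn2 had 0.79 in library 1 and -0.39 in library 2. Under this weighting 47 of 5546 genes (0.847%) were at least 2-fold higher in both libraries and 0 (0%) lower, at 30 UMIs in each library. At 20 UMIs the shares were 0.799% higher and 0.0145% lower. Within cluster 4 by itself, the neuroblast medians were -0.94 in library 1 and -0.75 in library 2. There 6 of 15 and 8 of 19 measured members were at least 2-fold lower, beside 284 of 5759 and 426 of 7548 genes. Within cluster 3 the medians were -0.06 and 0.26. The part of group make-up in the neuroblast difference was not tested.

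The immediate early list was also higher within single clusters, by smaller medians. Within cluster 4 they were 0.86 in library 1 and 1.39 in library 2. Cluster 7 had 1.26 and 1.34, and cluster 9 had 0.88 and 1.19, the last on 4 positive cells. Weighted by cluster, 15 of 24 measured members were at least 2-fold higher in both libraries, beside 0.799% of all genes. The medians were 1.17 (1.00 to 1.55) and 1.33 (1.14 to 1.71). The interferon median was 0.33 (-0.21 to 1.28) and 0.28 (-0.45 to 2.71) on few measured members, and the NF-kB median 0.47 (0.16 to 0.94) and 0.51 (0.28 to 1.35). The genes with the highest weighted ratios were Maff (2.47 in library 1 and 2.50 in library 2), Srxn1 (2.33 and 2.58), Dusp8 (2.12 and 2.63), Tnfrsf12a (2.44 and 2.06), Gem (2.03 and 1.84) and Irf1 (1.76 and 2.71). The next were Arc, Egr2, Jun, Trib1, Creb5, Gm17056, Nr4a1, Irf2bpl and Pde4b. Among the lowest were Sox8, a transcription factor of glia, with -0.95 and -0.92, the proteoglycan gene Bgn with -1.05 and -0.83, and Smo, the transducer of hedgehog signals, with -0.78 and -0.73. Restricted to cluster 3, which was examined after the data had been seen, the immediate early medians were 1.38 and 1.23, with 12 of 20 measured members at least 2-fold higher, beside 1.18% of all genes there; 0.268% were that much lower.

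The immediate early signal was graded with the number of UMIs of the 4 genes, and it did not start at the limit of 3. In library 1 the list summed to 66.5 UMIs per 10000 in cells with 0 UMIs of the 4 genes, to 77.7 with 1, 108 with 2, 179 with 3, 189 with 4, 205 with 5 to 9 and 223 with 10 or more. In library 2 the same steps gave 50.5, 74.9, 98.9, 117, 133, 197 and 239. The largest single step in library 1 lay between 2 and 3 UMIs, and in library 2 between 4 and 5 to 9. Maff went the same way, at 62.1 CPM with 0 UMIs and 733 CPM with 10 or more in library 1, and at 36.3 and 546 CPM in library 2.

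The interferon list differed most at the upper end. In library 1 it stood at 4.75 UMIs per 10000 with 0 UMIs of the 4 genes, 6.62 with 3 and 11.7 with 10 or more, and in library 2 at 2.90, 3.69 and 7.48. The share of cells in cluster 3 was 7.27% with 0 UMIs and 52.5% with 10 or more in library 1, and 5.66% and 52.4% in library 2. The neuroblast list was lower along the same steps, at 140 UMIs per 10000 with 0 UMIs and 55.0 with 10 or more in library 1, and 128 and 58.1 in library 2. Median depth differed between the steps, between 5986 and 9116 UMIs in library 1 and between 7091 and 9465 in library 2, and its part in these gradients was not tested.

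**Figure D4:**
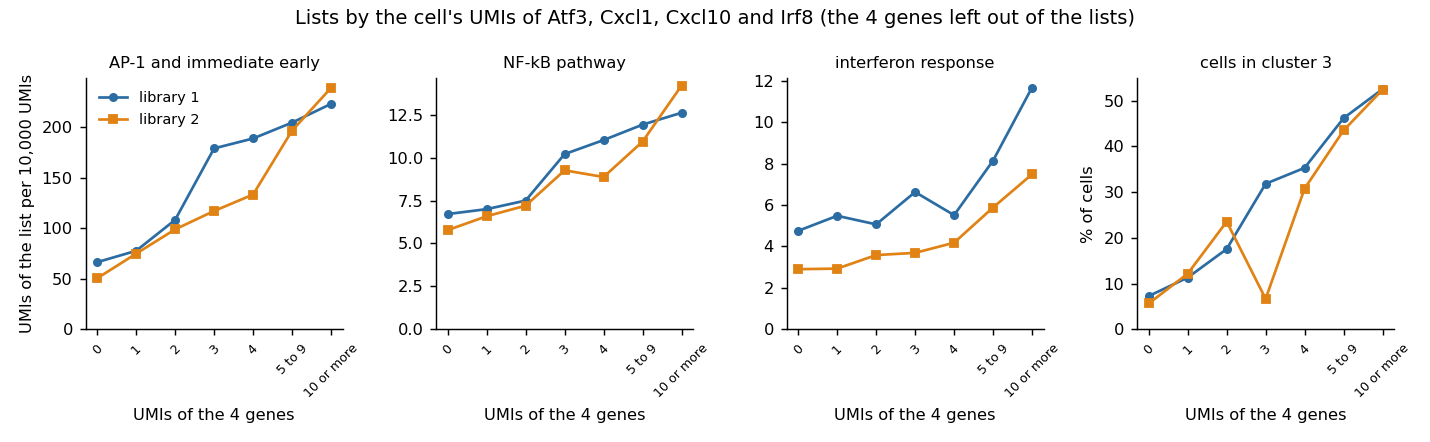
UMIs of the immediate early, NF-kB and interferon lists per 10000 UMIs, and the percentage of cells in cluster 3, against the UMIs of the 4 genes in the cell, for library 1 (circles) and library 2 (squares), without microglia-like cells. The immediate early list is higher at each step, up to 223 in library 1 and 239 in library 2, while the cluster 3 share of library 2 dips to 6.67% at 3 UMIs.

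The positive cells differed among themselves by which of the 4 genes they carried. Cells with at least 3 Irf8 UMIs had the highest interferon sums, 27.9 UMIs per 10000 in library 1 (9 cells) and 31.2 in library 2 (2 cells). Cells with at least 3 UMIs of Cxcl1 and Cxcl10 together had 17.7 (16 cells) and 8.31 (20 cells). Cells with Atf3 alone had 5.63 (56 cells) and 3.32 (38 cells), close to 4.75 and 2.90 in the comparison cells. Per cell, the median interferon level was 32.5 and 31.1 per 10000 in the Irf8 cells, 10.3 and 7.79 in the chemokine cells, 4.41 and 3.10 in the Atf3-only cells and 3.28 and 2.21 in the comparison cells. Groups overlapped: single comparison cells reached 92.8 and 96.5 per 10000, and the 11 Irf8 cells ranged from 3 to 42 interferon UMIs over 2 to 19 genes.

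NF-kB genes, summed over cells, came to 16.8 and 15.7 UMIs per 10000 in the chemokine cells. The Irf8 cells had 14.9 and 10.2, the Atf3-only cells 10.1 and 8.61 and the comparison cells 6.71 and 5.78. Cell by cell the order of the first pair differed between libraries, since the median cell had 15.6 and 13.6 UMIs per 10000 among the chemokine cells and 16.7 and 10.2 among the Irf8 cells, which numbered 9 in library 1 and 2 in library 2. Nfkbia stood at 380 CPM in the chemokine cells of library 1 and 484 CPM in library 2, at 178 CPM in the Atf3-only cells of library 1 (34 of 56 cells with a UMI), and at 93.3 and 60.3 CPM in the comparison cells. Irf1 stood at 380 and 239 CPM in the chemokine cells, at 50.5 and 38.9 CPM in the Atf3-only cells, and at 22.3 and 13.9 CPM in the comparison cells. The Irf8 cells had 234 CPM of Irf1 in library 1, and in library 2 all 7 of their Irf1 UMIs were in 1 cell.

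The immediate early list did not separate these subsets in the same way. It came to 243 and 209 UMIs per 10000 in the chemokine cells, 206 and 187 in the Irf8 cells and 209 and 173 in the Atf3-only cells, each far above 66.5 and 50.5 in the comparison cells. Maff was at 556 and 317 CPM in the chemokine cells and at 554 and 272 CPM in the Atf3-only cells, with overlapping Poisson intervals in both libraries. Genes of the G2 and M phases were lowest in the Irf8 cells, at 4.68 and 7.25 UMIs per 10000, against 34.6 and 45.1 in the comparison cells, and the Atf3-only cells were at 21.2 in library 1 and 56.6 in library 2. Only 1 cell belonged to both the Irf8 and the chemokine subset. Cluster 3 held all 11 Irf8 cells, 9 of 16 and 10 of 20 chemokine cells, and 19 of 56 and 10 of 38 Atf3-only cells, and the part of this make-up in the list values was not tested.

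**Figure D5:**
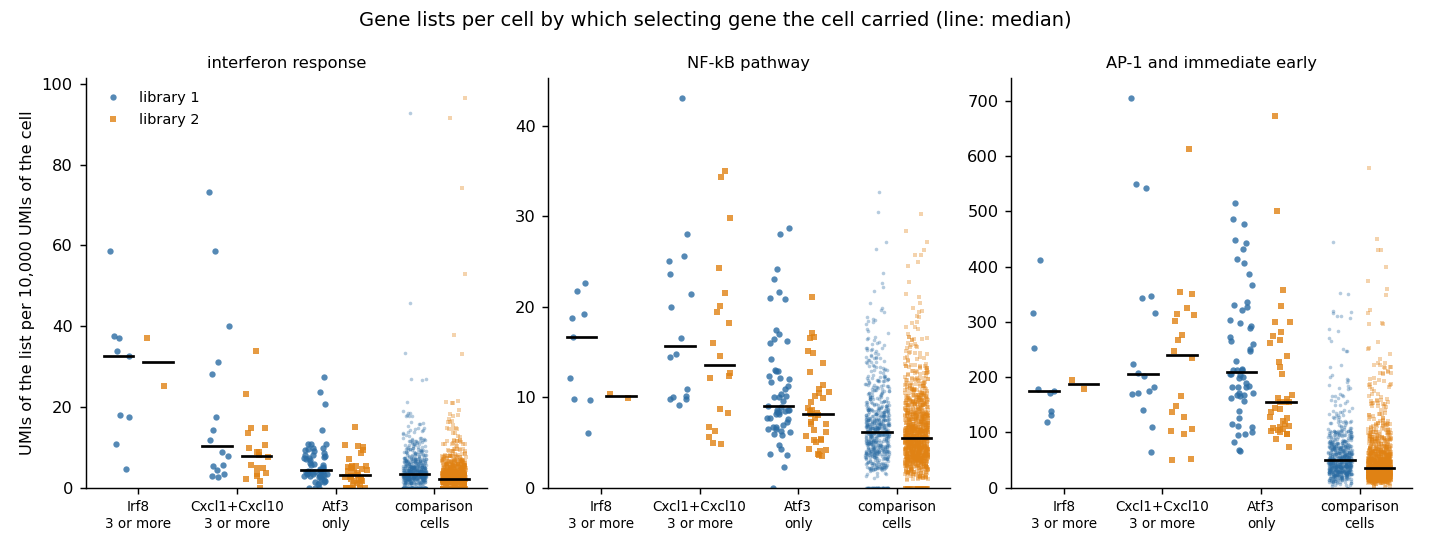
UMIs of the interferon, NF-kB and immediate early lists per 10000 UMIs of each cell (points) in Irf8, chemokine and Atf3-only cells beside the comparison cells, for library 1 (circles) and library 2 (squares), with the median as a black line. The interferon medians are 32.5 and 31.1 in the Irf8 cells and 4.41 and 3.10 in the Atf3-only cells, and single comparison cells reach 92.8 and 96.5.

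Between libraries, cell cycle genes of the positive cells were lower in library 1. Without microglia-like cells, the G2 and M phase list had a median log2 ratio of library 1 over library 2 of -1.0, with 18 of 36 measured genes at least 2-fold lower in library 1, and the S phase list had -0.50. The same ratios in comparison cells were -0.34 and -0.19. The make-up also differed, since cluster 4 held 12 positive cells in library 1 (of 107) and 22 in library 2 (of 76), and the part of this in the result was not tested. The background was 139 of 4891 genes (2.84%) at least 2-fold higher in library 1 and 55 (1.12%) lower. Interferon genes were higher in library 1 by a median of 0.72 in positive cells and 0.75 in comparison cells, and immediate early genes by 0.41 and 0.46, so both lists were shifted by a similar amount in the 2 groups.

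Single genes showed the same split between a shift of the positive cells and a shift of all cells. Hbegf, a growth factor of the EGF family, was at 68.7 CPM in positive cells of library 1 against 4.85 CPM in those of library 2, a log2 ratio of 3.82, with 26 of its 62 UMIs in 1 cell, and its ratio in comparison cells was 0.91. Hspa1a, an inducible heat shock protein gene, had 2.88 in positive cells and -0.71 in comparison cells, and Olig1, a transcription factor of the oligodendrocyte lineage and progenitors, had 2.36 and 0.52. Egr4 had 3.58 and 3.97, Lmo1 2.20 and 0.62, Gna14 2.91 and 1.26, and Tmem176b 2.91 and 0.95. In positive cells of library 2, Egr4 rested on 2 UMIs, Hbegf and Gna14 on 3 each, and Tmem176b and Hspa1a on 4 each. Comparison cells of library 2 had 3 Egr4 UMIs. Of the 43 Hspa1a UMIs in positive cells of library 1, 15 were in 1 cell. Lower in library 1 were Sfrp1, a secreted inhibitor of Wnt signals (-2.07 in positive and -1.87 in comparison cells), the receptor gene Notch2 (-2.06 and -1.51), and Pax6, a transcription factor of neural progenitors (-1.71 and -1.77). Ube2c, which acts in mitosis, had -1.55 in positive and -0.56 in comparison cells, and Arhgap11a had -1.59 and -0.38. Rarres2 and Ttc9b were also among the 8 lowest, and 37 of the 48 Rarres2 UMIs of library 2 were in 1 cell.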

How the data were processed

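Droplet-based single-cell RNA sequencing had been done on sorted cells of 1 library per age. The matrix that the authors deposited holds UMI counts as whole numbers, not normalized. Cell Ranger 2.0.0 and the builds GRCm38.p3 and mm10 are named per the submitters' processing notes, without their roles; how cells were called is not given in the sources used here. Totals were 10440891 UMIs in library 1 and 13330251 in library 2.

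The members, gene lists and comparisons were chosen with earlier results of these data known. UMIs were summed per cell group and library and scaled to CPM. Ratios are positive over comparison cells, with exact conditional 95% intervals; a group at 0 was set to 3 UMIs, a bound. List medians used genes with at least 20 UMIs over both groups in a library, and all-gene counts at least 30. Neither p-values nor replicates were available; intervals and floors cover counting error only. Shares have Clopper-Pearson intervals. Named genes were the 15 highest and 15 lowest by the smaller ratio of both libraries, and the 8 highest and 8 lowest between libraries; a few of these are not reported here. List members are named as members of their list, and Sox8, Bgn, Smo and others as extremes of the cluster-weighted ratios by the same rule.

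Clusters came from cells scaled to 10000 UMIs, the 2000 most variable genes outside all lists, 30 principal components, 15 neighbours and Leiden resolution 1, with at least 3 markers at 1.5-fold for a name. Doublets were called by Scrublet at an expected rate of 1.5% and kept, with a version without them as an alternative. Coordinates and promoters are on GRCm38. Tools were Python 3.11.15, scanpy 1.11.5, scipy 1.17.1, leidenalg 0.10.2 and pandas 2.3.3, seed 1; the ratios were tested on simulated data.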

Additional observations from a re-analysis of the deposited data

Results flagged for a closer look

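The limit on quiescent genes kept cells out of the comparison that also carried the 4 genes. Among cells over that limit and within the limits on mitochondrial and oligodendrocyte genes, 61 had at least 3 UMIs of Atf3, Cxcl1, Cxcl10 and Irf8, 41 of 769 in library 1 (5.33%, exact 95% interval 3.85 to 7.16%) and 20 of 567 in library 2 (3.53%, 2.17 to 5.40%). They were picked by the same sum of the 4 genes and differ from the positive cells in the quiescent limit only, so they are no independent check. Of the 61, 34 lay in cluster 3, 24 in cluster 1 and 3 in cluster 0. Of the 1146 cells over the limit with 0 UMIs, cluster 3 held 77, cluster 1 held 316 and cluster 0 held 751. The ratios therefore compare sets of different make-up, and the part of this was not tested. The median depth of the 61 was 5331 UMIs in library 1 and 4720 in library 2, against 3464 and 3407 in the 637 and 509 cells over the limit with 0 UMIs of the 4 genes.

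Several of the same genes were higher in them. Maff was at 868 CPM in the library 1 cells of this set against 30 CPM in cells with 0 UMIs, and at 661 against 31.1 CPM in library 2, log2 ratios of 4.86 and 4.41. Nr4a1 had 3.85 and 3.59, Irf1 4.02 and 3.80, Junb 3.58 and 3.55 and Ddit3 2.65 and 2.81. Of 23 measured immediate early genes, 20 were at least 2-fold higher in both libraries, beside 3.43% of all genes; 2.89% were that much lower. The list median was 3.38 (2.96 to 3.85) and 2.97 (2.71 to 3.54), and the NF-kB median was 0.49 and 0.10. The quiescent list was lower in these cells, by medians of -0.80 and -1.94, and the activated list was higher, by 1.01 and 0.88. Whether these cells and the positive cells differ in their response was not tested.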

How the results depend on the processing

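The choice of cells moved the counts most. A sum of at least 2 UMIs gave 164 and 110 cells in library 1 and library 2, at least 5 UMIs gave 68 and 48, leaving Atf3 out of the sum gave 25 and 26, and thinning to 2000 UMIs gave 39 and 30.

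Genes at least 2-fold higher in both libraries numbered 414 without Atf3 in the sum, 156 after thinning, 134 with comparison cells weighted to the positive cells' depth, 47 weighted to their clusters, 454 at 10 and 120 at 100 UMIs per gene, and 40 in cluster 3 alone. Cluster 3 alone and the version without the microglia-like cells were chosen after seeing the data. Genes at least 2-fold lower numbered 36 under the depth weights, 0 under the cluster weights, 89 at 100 UMIs per gene, 310 for the mean over cells and 6 in cluster 3 alone. Most of these settings also changed which genes were tested, so the counts are not shares of a common set. As reported, 238 of 9687 genes (2.46%) were higher and 179 (1.85%) lower. Under the cluster weights it was 47 of 5546 (0.847%) and 0 (0%).

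The immediate early median stayed above 0 in all 18 alternatives of each library, from 1.17 to 2.35 in library 1 and from 1.23 to 2.35 in library 2. It was 2.35 in library 2 at 5 UMIs, 1.17 and 1.33 under the cluster weights, and 1.38 and 1.23 in cluster 3 alone. The NF-kB median of library 2 was 0.51 under the cluster weights and 0.30 in cluster 3. The interferon median was 1.89 and 1.31 without Atf3 in the sum, 1.18 in library 2 after thinning, 0.33 and 0.28 under the cluster weights, 0.23 in library 1 at 100 UMIs per gene and 0.10 in library 1 in cluster 3. The integrated stress response median of library 2 was 0.30 at 2 UMIs, 0.25 at 5 UMIs, 0.13 without Atf3, 0.23 under the cluster weights and -0.020 in cluster 3.

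Some lists and genes changed sign. The oligodendrocyte precursor list of library 2, with many members at 0, reached 0.57 without Atf3 and 0.18 after thinning. Sema6c was 0.25 in library 1 without Atf3 and 0.69 in library 2 after thinning, Stc1 was 0.058 and 0.47 and Atcay 0.049 in library 2 without Atf3. Under the cluster weights Dlx6os1 was 0.51 and Stmn2 0.79 in library 1, and in cluster 3 alone the neuroblast median was 0.26 and Dlx6os1 0.35 in library 2. The cause was not tested.

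No paired analysis was possible because each age had 1 library with no replicate number.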
